A study of Homo sapiens with 16 samples.

Results

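The genes described here are 10 members of the death receptor and BCL2 families, chosen by symbol: the receptors FAS, TNFRSF10A and TNFRSF10B, the adaptor FADD, the initiator protease CASP8, its regulator CFLAR, the BH3-only genes BID, BIK and BCL2L11, and the survival gene BCL2L1. All 10 were found among the 58219 genes of the deposited table, and all 10 were among the 17743 that passed the filter on low counts. BIK passed that filter only through libraries of siRNA-treated cells, so its presence among the tested genes already required a higher count there.

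Cells die by the extrinsic route when a ligand such as FASLG or TRAIL gathers its receptors at the surface, and the receptors recruit FADD, which in turn recruits pro-caspase 8 through death-effector domains. CFLAR encodes c-FLIP, a relative of caspase 8 that takes its place in this complex and limits its activation. Active caspase 8 cleaves effector caspases directly and also cleaves BID, whose fragment moves to mitochondria and engages the BCL2 family, where BH3-only proteins such as BIM (BCL2L11) and BIK oppose survival proteins such as BCL-XL (BCL2L1). FLASH, encoded by CASP8AP2, was first described as a binding partner of caspase 8, and is also known for its role with NPAT and the stem-loop binding protein SLBP in making replication-dependent histone mRNA.

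PANC-1 is an established epithelial line from a human pancreatic carcinoma. The cells received siRNA against FLASH, siRNA against NPAT or siRNA against SLBP, or were left non-transfected (wild type, called mock in the labels), and each of these was grown either with TGFb at 100 ng/ml for 48 h or without it, which gives 8 groups of 2 libraries each. TGFb is a cytokine that drives epithelial cells toward a mesenchymal state. The sample titles give day 3, while the design text counts 4 days from transfection to collection. A non-targeting siRNA appears in none of the 8 groups, so the effect of transfection itself and the effect of each target cannot be told apart in a comparison with non-transfected cells. Whether repeats came from separate cultures is not stated, so p-values measure the spread between these libraries, which may be technical. In bulk RNA, a different share of cells and a different amount of RNA per cell cannot be told apart.

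Start-site sequence is shown for CASP8, FAS and BID, which stand for 3 patterns described below: higher after every siRNA, highest after FLASH siRNA, and higher after FLASH siRNA than after SLBP siRNA. Each window runs from 250 bases before to 50 bases after an annotated start and comes from the RefSeq table of build GRCh38.p14. Capitals mark every match, on either strand, to 5 motifs. The first is the GC box GGGCGG. The second is the TATA box, read as TATAAA. The third is the E-box CACCTG. The others are the interferon-stimulated response element, read as GAAA, any 2 bases and GAAA again, and the NF-kB site, read as GGGA, any base and TTTCC. A match on the opposite strand is read as its reverse complement.
CASP8 promoter, chr2:201233213-201233512, + strand: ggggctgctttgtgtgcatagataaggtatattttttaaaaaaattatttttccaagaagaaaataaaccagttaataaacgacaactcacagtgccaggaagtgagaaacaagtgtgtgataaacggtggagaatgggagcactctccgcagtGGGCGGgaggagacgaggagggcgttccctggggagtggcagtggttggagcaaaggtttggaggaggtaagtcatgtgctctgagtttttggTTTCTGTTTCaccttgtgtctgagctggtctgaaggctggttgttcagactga
FAS promoter, chr10:88990548-88990847, + strand: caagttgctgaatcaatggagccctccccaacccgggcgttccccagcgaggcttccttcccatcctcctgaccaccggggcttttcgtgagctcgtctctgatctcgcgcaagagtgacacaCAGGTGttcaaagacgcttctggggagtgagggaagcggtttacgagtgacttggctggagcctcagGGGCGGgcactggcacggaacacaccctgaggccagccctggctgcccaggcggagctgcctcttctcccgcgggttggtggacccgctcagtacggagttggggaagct
BID promoter, chr22:17774420-17774719, - strand: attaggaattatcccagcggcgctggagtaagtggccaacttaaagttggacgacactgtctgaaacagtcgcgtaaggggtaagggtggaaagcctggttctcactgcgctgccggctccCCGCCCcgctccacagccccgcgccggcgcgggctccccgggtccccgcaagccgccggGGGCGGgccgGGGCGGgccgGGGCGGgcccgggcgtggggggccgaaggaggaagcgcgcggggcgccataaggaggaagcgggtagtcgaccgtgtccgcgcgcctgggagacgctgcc
The CASP8 window held 1 GC box and 1 match to the interferon element on the opposite strand. The FAS window held 1 GC box and 1 E-box on the opposite strand. The BID window held 4 GC boxes, 1 of them on the opposite strand, and none of the other motifs. Of all 34943 windows in the table, 44.9% held a GC box, 20.6% held the E-box, 11.6% held TATAAA, 3.57% held the interferon element and 0.558% held the NF-kB form. The CASP8 window held 6 CpG, the FAS window 18 and the BID window 37, against a median of 14 over all windows. Each is 1 of several windows that the table holds for its gene: the 3 CASP8 windows held 5 or 6 CpG, the 3 FAS windows 14 to 22 and the 5 BID windows 6 to 37, with 0 GC boxes in the BID window of 6 CpG. A match describes these letters and is not evidence of binding.

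Libraries held 23.8 to 30.8 M expected counts. Levels below are CPM, the count scaled to library size by trimmed means, unless given as TPM, in which the deposited values also account for transcript length. The targeted transcripts were lower in each library of their own siRNA group. CASP8AP2 stood at 10.3 and 13.1 CPM after FLASH siRNA, against 52.0 and 62.4 CPM in non-transfected cells, and with TGFb at 12.7 and 10.1 CPM after FLASH siRNA, against 51.1 and 57.2 CPM. In the 4 NPAT siRNA libraries CASP8AP2 stood at 38.2 to 49.3 CPM, and in the 4 SLBP siRNA libraries at 42.2 to 54.5 CPM. NPAT stood at 5.18 to 7.69 CPM in the 4 NPAT siRNA libraries, against 47.0 to 54.1 CPM in the 4 non-transfected libraries, and SLBP at 3.53 to 4.31 CPM in the 4 SLBP siRNA libraries, against 63.1 to 71.6 CPM. Epithelial markers fitted the labelled cell type: KRT8 stood at 344 to 814 CPM and KRT18 at 291 to 588 CPM, and none of the 6 markers (also KRT19, EPCAM, CDH1 and KRT7) was at 0 in any of the 16 libraries. The number of genes with counts also differed with transfection, at 22704 to 24368 in the 12 siRNA libraries against 21130 to 21355 in the 4 non-transfected libraries. Mitochondrial transcripts held 8.81% to 13.1% of counts in the siRNA libraries and 6.96% to 9.84% in the non-transfected ones. These mitochondrial shares overlapped with TGFb and lay apart without it. The part of these measures in the results below was not tested.

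In the reported fit, every member that passed the test against non-transfected cells did so as higher in siRNA-treated cells. After FLASH siRNA without TGFb, FAS, CASP8, TNFRSF10B, BID and BIK rose (adjusted p under 0.05, from the quasi-likelihood test of edgeR, adjusted by Benjamini-Hochberg over all tested genes), while 20.8% of all genes tested were called higher and 12.9% lower. After NPAT siRNA without TGFb, CASP8, TNFRSF10B, CFLAR and BIK rose, against 18.9% of all genes called higher and 13.3% lower. After SLBP siRNA without TGFb, CASP8, TNFRSF10B and BIK rose, against 15.1% of all genes called higher and 10.8% lower. With TGFb present, 2 of the 10 rose after FLASH siRNA (FAS and BIK), 2 after NPAT siRNA (CFLAR and BIK) and 4 after SLBP siRNA (CASP8, FAS, TNFRSF10B and BIK), while 17.5%, 13.7% and 12.3% of all genes were called higher and 9.06%, 10.3% and 7.6% lower in those comparisons. The 2 of 10 under TGFb are near the share of all genes. Without TGFb, the median log2 fold change over the 10 members was 0.44 after FLASH siRNA, 0.47 after NPAT siRNA and 0.29 after SLBP siRNA, beside 0.04, 0.06 and 0.05 over all tested genes; with TGFb the members' medians were 0.26, 0.31 and 0.14. Without BIK, which the filter admitted only through siRNA libraries, the counts were 4, 3 and 2 of 9 members without TGFb and 1, 1 and 3 of 9 with it. FADD, TNFRSF10A, BCL2L11 and BCL2L1 passed in none of the comparisons of this fit. The 3 comparisons at each TGFb status share the same 2 non-transfected libraries, so they are not independent of each other. When each fit was restricted to its own groups, 0 of 10 members passed after NPAT siRNA or SLBP siRNA without TGFb. BIK was not tested in those fits, since it did not pass their filter. Restriction also lost the FAS difference between FLASH and NPAT siRNA and the BID difference between FLASH and SLBP siRNA given below.

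**Figure D1:**
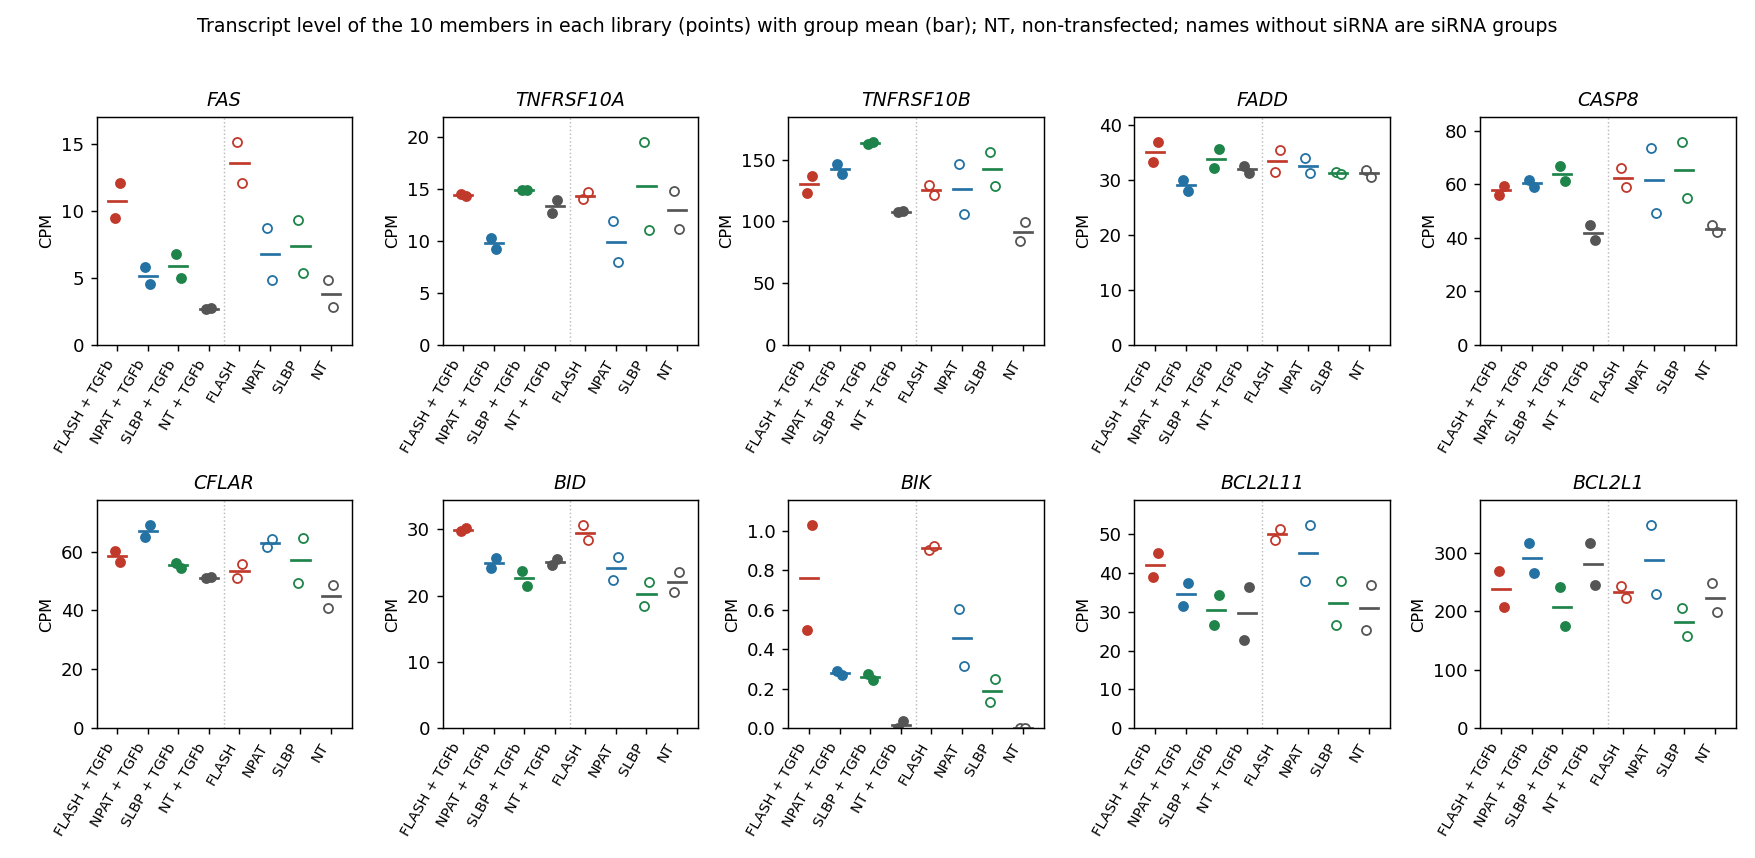
CPM (vertical axis, from 0) of each of the 10 members in every library, by group; points are libraries, bars are the means of 2 libraries, filled points are with TGFb and open points without. FAS was highest after FLASH siRNA (9.45 to 15.1 CPM), CASP8 was above the non-transfected libraries in all 12 siRNA libraries, and FADD stayed between 28.0 and 36.8 CPM throughout.

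FAS, the receptor for FAS ligand, changed most among the members with substantial counts. It stood at 15.1 and 12.0 CPM after FLASH siRNA, 8.71 and 4.80 CPM after NPAT siRNA and 9.32 and 5.36 CPM after SLBP siRNA, against 4.82 and 2.82 CPM in non-transfected cells. With TGFb the values were 9.45 and 12.1 CPM after FLASH siRNA, 5.83 and 4.51 CPM after NPAT siRNA and 6.79 and 4.96 CPM after SLBP siRNA, against 2.65 and 2.77 CPM in non-transfected cells. The FLASH libraries lay above every library of the other groups with the same TGFb status. Without TGFb the lowest NPAT library lay just under the highest non-transfected one, while with TGFb all 6 siRNA libraries lay above both non-transfected ones. The log2 fold change after FLASH siRNA was 1.83 (SE 0.35, 95% interval 1.07 to 2.58, adjusted p = 0.0018, edgeR) without TGFb and 1.99 (SE 0.36, interval 1.21 to 2.76, adjusted p = 0.0016) with it, higher in 2 of 2 libraries each time. After NPAT siRNA it was 0.82 (adjusted p = 0.09) and, with TGFb, 0.93 (adjusted p = 0.08). After SLBP siRNA it was 0.94 (adjusted p = 0.064) and, with TGFb, 1.12 (adjusted p = 0.047). The 3 values that missed the threshold passed with no filter on low counts (adjusted p = 0.011, 0.004 and 0.0024). The FLASH calls held when any 1 library was left out (highest adjusted p 0.024 without TGFb and 0.02 with it), whereas the call after SLBP siRNA with TGFb was lost without any of its 4 libraries (adjusted p up to 0.2).

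FAS lies on chromosome 10 (88990582 to 89015785, GENCODE 29), and its 5' end overlaps ACTA2, the smooth-muscle actin gene, on the opposite strand (88935074 to 88991339). ACTA2 stood at 6.11 and 4.71 CPM after FLASH siRNA, 2.11 and 2.01 CPM after NPAT siRNA and 2.25 and 2.47 CPM after SLBP siRNA, against 1.39 and 1.86 CPM in non-transfected cells. Its log2 fold change after FLASH siRNA was 1.73 (SE 0.23, adjusted p = 0.00019, edgeR) and, with TGFb, 2.08 (adjusted p = 0.00011), and after SLBP siRNA with TGFb it was 1.91 (adjusted p = 0.00035). The library kit keeps strand, but the strand setting used in counting is not given in the sources used here, and any share of reads passing between the overlapping genes was not tested.

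TNFRSF10A and TNFRSF10B encode DR4 and DR5, the TRAIL receptors that carry a death domain; both lie on chromosome 8. TNFRSF10B stood at 129 and 122 CPM after FLASH siRNA, 146 and 106 CPM after NPAT siRNA and 156 and 128 CPM after SLBP siRNA, against 84.2 and 99.3 CPM in non-transfected cells. With TGFb it stood at 123 and 137 CPM after FLASH siRNA, 146 and 138 CPM after NPAT siRNA and 163 and 164 CPM after SLBP siRNA, against 107 and 108 CPM. All 6 siRNA libraries lay above both non-transfected libraries at each TGFb status. Without TGFb the log2 fold changes were 0.45 (SE 0.14, adjusted p = 0.029) after FLASH siRNA, 0.46 (SE 0.14, adjusted p = 0.029) after NPAT siRNA and 0.63 (SE 0.14, adjusted p = 0.008) after SLBP siRNA, by edgeR's test. With TGFb the change after SLBP siRNA was 0.60 (adjusted p = 0.012), while 0.27 after FLASH siRNA (adjusted p = 0.19) and 0.40 after NPAT siRNA (adjusted p = 0.06, and 0.028 with no filter or with DESeq2) did not pass. Each of these calls was lost when non-transfected repeat 1 of its TGFb status was left out; without TGFb, leaving out either FLASH library or NPAT repeat 1 also ended the FLASH or NPAT call, and with TGFb so did leaving out non-transfected repeat 2 or SLBP repeat 2 (adjusted p up to 0.21 for FLASH, 0.3 for NPAT, 0.087 for SLBP and 0.078 for SLBP with TGFb).

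TNFRSF10A passed in no comparison of the reported fit, and its difference from TNFRSF10B was not tested. It stood at 14.1 and 14.7 CPM after FLASH siRNA, 11.9 and 7.99 CPM after NPAT siRNA and 19.5 and 11.0 CPM after SLBP siRNA, against 14.8 and 11.2 CPM in non-transfected cells, and the groups overlapped. The log2 fold change was 0.15 after FLASH siRNA (interval -0.38 to 0.68, adjusted p = 0.68), -0.38 after NPAT siRNA (interval -0.92 to 0.15, adjusted p = 0.25) and 0.24 after SLBP siRNA (interval -0.29 to 0.76, adjusted p = 0.5). With TGFb, TNFRSF10A stood at 14.6 and 14.3 CPM after FLASH siRNA, 10.3 and 9.29 CPM after NPAT siRNA and 15.0 and 14.9 CPM after SLBP siRNA, against 12.8 and 14.0 CPM. Here the FLASH and SLBP libraries lay above both non-transfected ones (log2 fold changes 0.11 and 0.16, adjusted p = 0.77 and 0.69) and the NPAT libraries below both (-0.45, interval -0.99 to 0.08, adjusted p = 0.2). The TNFRSF10 genes are close paralogues, so how shared reads were divided among them bears on these levels. RHOBTB2, which overlaps TNFRSF10B, held 1.90 to 10.2 CPM over the libraries and had a log2 fold change of 1.14 after FLASH siRNA (adjusted p = 0.022, edgeR), 0.96 after NPAT siRNA (adjusted p = 0.047) and 1.15 after SLBP siRNA (adjusted p = 0.027); its part in the TNFRSF10B count was not tested.

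FADD, the adaptor that links the receptors to caspase 8, showed the narrowest range of the members. It stood at 31.3 and 35.3 CPM after FLASH siRNA, 34.0 and 31.2 CPM after NPAT siRNA and 31.4 and 31.0 CPM after SLBP siRNA, against 31.7 and 30.5 CPM in non-transfected cells. With TGFb, FADD stood at 33.1 and 36.8 CPM after FLASH siRNA, 29.9 and 28.0 CPM after NPAT siRNA and 32.2 and 35.5 CPM after SLBP siRNA, against 32.5 and 31.3 CPM. Without TGFb each siRNA group overlapped the non-transfected libraries. With TGFb the FLASH libraries lay above both non-transfected ones, the NPAT libraries lay below both, and the SLBP libraries overlapped them. The log2 fold changes against non-transfected cells lay between -0.14 and 0.13 over the 6 comparisons, with adjusted p of 0.35 or more. The interval of the FLASH difference without TGFb was -0.13 to 0.32.

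CASP8, the initiator caspase and the partner for which FLASH was named, lay above the non-transfected level in every siRNA library. It stood at 66.0 and 59.0 CPM after FLASH siRNA, 73.7 and 49.2 CPM after NPAT siRNA and 75.8 and 54.8 CPM after SLBP siRNA, against 44.8 and 42.1 CPM in non-transfected cells. With TGFb it stood at 56.2 and 59.5 CPM after FLASH siRNA, 61.5 and 59.2 CPM after NPAT siRNA and 66.8 and 61.2 CPM after SLBP siRNA, against 44.7 and 39.3 CPM. The 12 siRNA libraries ran from 49.2 to 75.8 CPM (median 60.3) and the 4 non-transfected libraries from 39.3 to 44.8 CPM, with no overlap. The log2 fold change without TGFb was 0.53 (SE 0.18, adjusted p = 0.039, edgeR) after FLASH siRNA, 0.50 (SE 0.18, adjusted p = 0.049) after NPAT siRNA and 0.59 (SE 0.18, adjusted p = 0.031) after SLBP siRNA. With TGFb it was 0.46 after FLASH siRNA (adjusted p = 0.076, and 0.02 with no filter), 0.52 after NPAT siRNA (adjusted p = 0.051, and 0.0052 with no filter) and 0.61 after SLBP siRNA (adjusted p = 0.032). These calls stood close to the threshold: the FLASH call and the SLBP call with TGFb were each lost without any of their 4 libraries (adjusted p up to 0.19 and 0.2), the NPAT call without either non-transfected library or NPAT repeat 1 (up to 0.47), and the SLBP call without TGFb without either non-transfected library or SLBP repeat 1 (up to 0.2).

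CFLAR, the caspase 8 decoy, lies beside CASP8 on chromosome 2 (201116104 to 201176687, with CASP8 at 201233443 to 201287711, GENCODE 29) and rose after NPAT siRNA. It stood at 51.0 and 55.7 CPM after FLASH siRNA, 61.5 and 64.4 CPM after NPAT siRNA and 49.3 and 64.7 CPM after SLBP siRNA, against 41.0 and 48.8 CPM in non-transfected cells. With TGFb it stood at 60.4 and 56.5 CPM after FLASH siRNA, 65.1 and 69.0 CPM after NPAT siRNA and 56.2 and 54.5 CPM after SLBP siRNA, against 51.1 and 51.3 CPM. Every siRNA library was above both non-transfected libraries of its TGFb status, by a narrow margin in several. The log2 fold change after NPAT siRNA was 0.49 (SE 0.13, adjusted p = 0.012, edgeR) and, with TGFb, 0.39 (adjusted p = 0.04), against 0.25 and 0.19 after FLASH siRNA (adjusted p = 0.15 and 0.29) and 0.35 and 0.11 after SLBP siRNA (adjusted p = 0.06 and 0.57). The NPAT call was lost without non-transfected repeat 1 or NPAT repeat 2 (adjusted p up to 0.11), and with TGFb without any of its 4 libraries (up to 0.18).

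Per length, CFLAR was the less abundant of the pair in every library. The CFLAR to CASP8 ratio of TPM lay between 0.471 and 0.654 in the 6 siRNA libraries with TGFb, against 0.727 and 0.712 in non-transfected cells with TGFb. Without TGFb the ratio was 0.462 and 0.420 after FLASH siRNA, 0.551 and 0.524 after NPAT siRNA and 0.438 and 0.577 after SLBP siRNA, against 0.501 and 0.614 in non-transfected cells, where the groups overlapped. The ratio also carries the transcript length that RSEM assigned to CFLAR, which was shorter in repeat 1 than in repeat 2 in all 8 groups.

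BIK (chromosome 22, 43110748 to 43129712), a BH3-only protein that binds survival members of the BCL2 family, was almost absent from non-transfected cells. Its counts were 23 and 25 after FLASH siRNA, 16 and 8 after NPAT siRNA and 4 and 7 after SLBP siRNA, against 0 and 0 in non-transfected cells. With TGFb the counts were 15 and 28 after FLASH siRNA, 7 and 8 after NPAT siRNA and 7 and 6 after SLBP siRNA, against 0 and 1. Every siRNA library lay above every non-transfected library, at 0.130 to 1.03 CPM against 0 to 0.0359 CPM. With a floor of 3 counts over the non-transfected group, BIK was at least 16.5-fold higher after FLASH siRNA, at least 8.36-fold higher after NPAT siRNA and at least 3.37-fold higher after SLBP siRNA. With TGFb the count ratios were 39.7 (95% interval 6.75 to 1603) after FLASH siRNA, 14.7 (2.26 to 619) after NPAT siRNA and 13.8 (2.08 to 588) after SLBP siRNA. The floor and intervals cover counting error only, and even the highest level is under 2 TPM.

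The adjusted p of edgeR's test was under the threshold in all 6 BIK comparisons, after a filter that BIK passed only through siRNA libraries, so these calls are given as a description (adjusted p = 0.00029, 0.0018 and 0.015 after FLASH, NPAT and SLBP siRNA, and 0.0011, 0.018 and 0.026 with TGFb). The FLASH calls and the NPAT call without TGFb held without any 1 library. The SLBP call without TGFb was lost without either non-transfected library or SLBP repeat 2 (adjusted p up to 0.082), and the NPAT and SLBP calls with TGFb were each lost without any of their 4 libraries (up to 0.098 and 0.13) and under DESeq2.

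BID (chromosome 22, 17734138 to 17774770, minus strand), the BH3-only protein that caspase 8 cleaves, was highest after FLASH siRNA. It stood at 30.6 and 28.4 CPM after FLASH siRNA, 22.4 and 25.8 CPM after NPAT siRNA and 18.4 and 22.0 CPM after SLBP siRNA, against 20.6 and 23.5 CPM in non-transfected cells. With TGFb it stood at 29.7 and 30.1 CPM after FLASH siRNA, 24.1 and 25.7 CPM after NPAT siRNA and 23.7 and 21.4 CPM after SLBP siRNA, against 24.6 and 25.6 CPM. The FLASH libraries lay above all others of their TGFb status, and the remaining groups overlapped or lay close together. The log2 fold change after FLASH siRNA was 0.42 (SE 0.12, interval 0.16 to 0.69, adjusted p = 0.019, edgeR) without TGFb and 0.25 (interval -0.01 to 0.52, adjusted p = 0.15) with it. After NPAT siRNA it was 0.13 (adjusted p = 0.45) and after SLBP siRNA -0.12 (adjusted p = 0.48). The FLASH call was lost without non-transfected repeat 1 or FLASH repeat 1 (adjusted p up to 0.15) and without the filter on low counts.

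BCL2L11, which encodes BIM, another BH3-only protein, stood at 48.5 and 51.4 CPM after FLASH siRNA, 37.9 and 52.3 CPM after NPAT siRNA and 26.7 and 38.0 CPM after SLBP siRNA, against 25.2 and 36.8 CPM in non-transfected cells. Both FLASH libraries lay above both non-transfected ones, but the log2 fold change of 0.69 (SE 0.26, interval 0.13 to 1.25) missed the threshold (adjusted p = 0.055, edgeR). It passed with no filter on low counts (adjusted p = 0.00032), when the fit was restricted to those groups (0.017) and with DESeq2 (0.036). The corresponding values were 0.54 after NPAT siRNA (adjusted p = 0.12, and 0.01 with no filter) and 0.06 after SLBP siRNA (adjusted p = 0.89). With TGFb BCL2L11 stood at 38.8 and 45.2 CPM after FLASH siRNA, 31.6 and 37.4 CPM after NPAT siRNA and 26.5 and 34.4 CPM after SLBP siRNA, against 22.7 and 36.4 CPM in non-transfected cells. The FLASH libraries were the highest pair there, and the change after FLASH siRNA was 0.50 (adjusted p = 0.17, and 0.017 with no filter). Repeat 2 exceeded repeat 1 for BCL2L11 in all 8 groups. MIR4435-2HG, which overlaps BCL2L11, held 19.2 to 45.2 CPM and rose after FLASH siRNA (log2 fold change 0.63, adjusted p = 0.017); its part in the BCL2L11 count was not tested.

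BCL2L1, which encodes the survival protein BCL-XL, was the most abundant member and passed in no comparison of the reported fit. It stood at 244 and 224 CPM after FLASH siRNA, 348 and 230.0 CPM after NPAT siRNA and 206 and 157 CPM after SLBP siRNA, against 249 and 198 CPM in non-transfected cells. The spread between repeats was wide, and repeat 1 exceeded repeat 2 in all 8 groups. The log2 fold changes were 0.07 after FLASH siRNA (interval -0.43 to 0.57, adjusted p = 0.85, edgeR), 0.37 after NPAT siRNA (interval -0.13 to 0.87, adjusted p = 0.24) and -0.30 after SLBP siRNA (interval -0.80 to 0.20, adjusted p = 0.36). With TGFb it stood at 269 and 207 CPM after FLASH siRNA, 318 and 266 CPM after NPAT siRNA and 241 and 175 CPM after SLBP siRNA, against 317 and 245 CPM in non-transfected cells. Both SLBP libraries lay below both non-transfected ones there, with a log2 fold change of -0.43 (interval -0.93 to 0.07, adjusted p = 0.21). With no filter on low counts BCL2L1 was called lower after SLBP siRNA both without TGFb (-0.34, adjusted p = 0.047) and with it (-0.45, adjusted p = 0.0052).

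**Figure D2:**
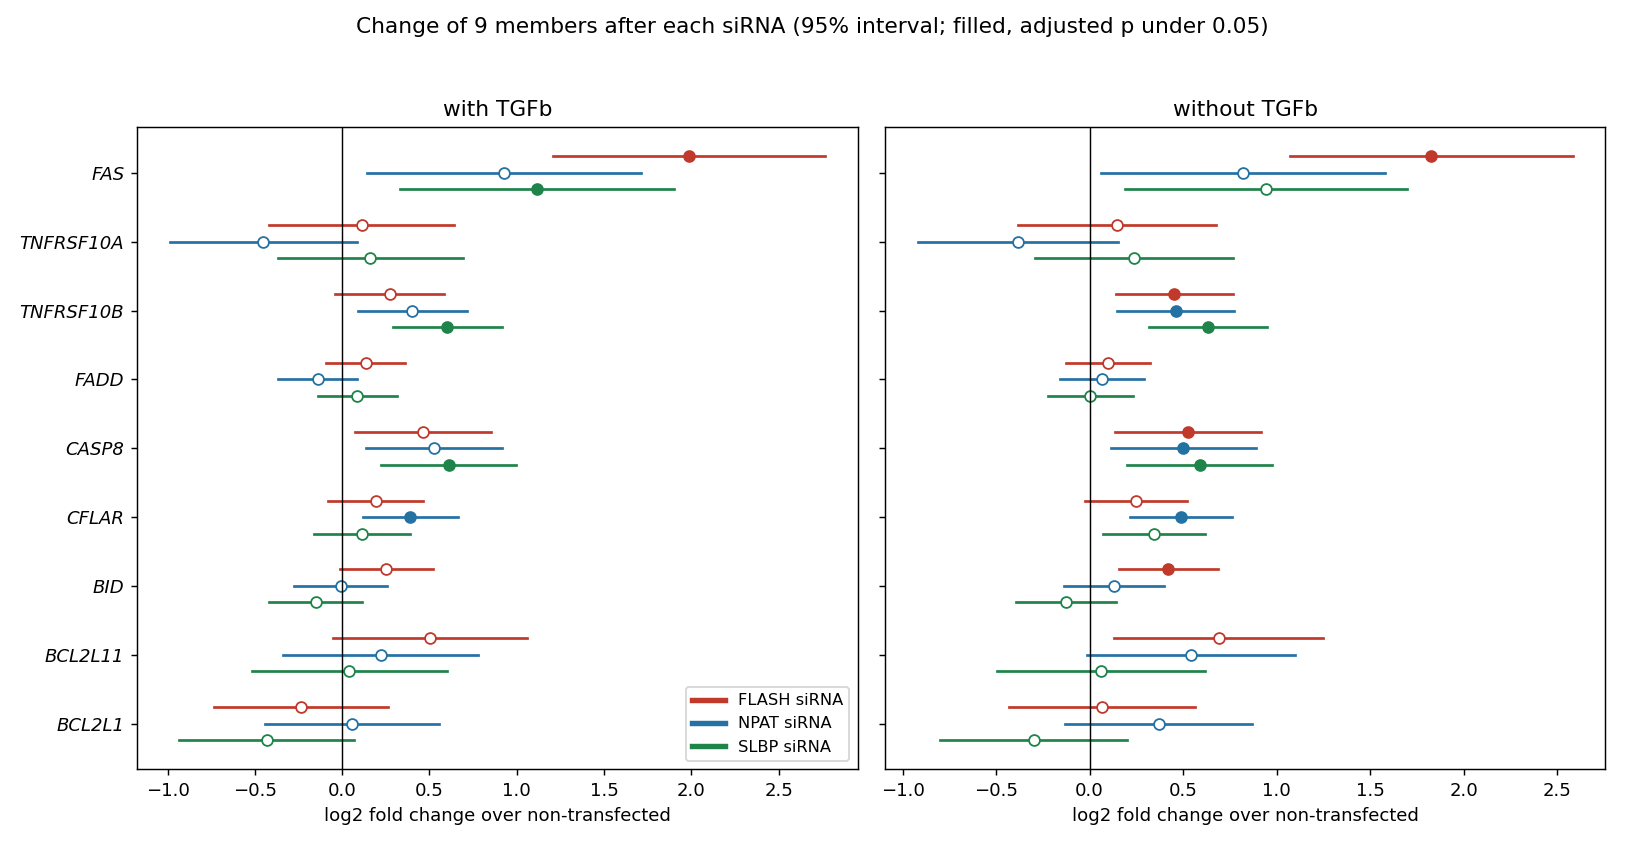
Log2 fold change of 9 members over non-transfected cells (horizontal axis), with TGFb on the left and without on the right; points are estimates, lines their 95% intervals, and filled points passed the adjusted p threshold. FAS after FLASH siRNA, at 1.99 with TGFb and 1.83 without, lies farthest right; BIK, with 0 or 1 count in each non-transfected library, is not drawn because its fitted fold change is not a bound.

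FLASH siRNA was also set against the other siRNAs, where all libraries compared were transfected. FAS was higher after FLASH siRNA than after NPAT siRNA without TGFb (log2 fold change 1.01, SE 0.34, adjusted p = 0.049, edgeR), the only member called in that comparison, in which 22.3% of all genes were called. The difference with TGFb was 1.06 (adjusted p = 0.058, and 0.00034 with no filter). Against SLBP siRNA the FAS difference was 0.89 (adjusted p = 0.068, and 0.002 with no filter) without TGFb and 0.87 (adjusted p = 0.11, and 0.006 with no filter) with it. BID was higher after FLASH siRNA than after SLBP siRNA, by 0.55 (SE 0.12, adjusted p = 0.0072) without TGFb and 0.40 (adjusted p = 0.048) with it. BIK was higher after FLASH siRNA than after SLBP siRNA without TGFb (2.26, SE 0.54, adjusted p = 0.011, edgeR), and the difference with TGFb was 1.52 (adjusted p = 0.084). BIK passed the filter on low counts through its highest libraries, mostly those of FLASH siRNA, so its values here are given as a description. BID and, with that limit, BIK were the 2 members called between FLASH and SLBP siRNA without TGFb, where 26.2% of all genes were called. BID was the 1 called with TGFb, where 13% were called.

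CASP8 gave no such difference: FLASH minus NPAT was 0.02 (interval -0.36 to 0.41) and FLASH minus SLBP -0.06 (interval -0.45 to 0.32) on the log2 scale without TGFb. For TNFRSF10B, FLASH minus NPAT was -0.01 (interval -0.32 to 0.30) and FLASH minus SLBP -0.18 (interval -0.49 to 0.13). Between FLASH and NPAT siRNA with TGFb no member passed edgeR's test, while 13.6% of all genes did; FADD, FAS, TNFRSF10A and BIK had an unadjusted p under 0.05, and DESeq2 called 1 member. The FAS call was lost without either FLASH library or NPAT repeat 2 (adjusted p up to 0.28), the BID calls without FLASH repeat 1 (0.069) or, with TGFb, without any of 4 libraries (up to 0.26), and the BIK call without either FLASH library or SLBP repeat 1 (up to 0.066).

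In the reported fit no member passed edgeR's test for TGFb against no TGFb after FLASH siRNA, NPAT siRNA or SLBP siRNA, or in non-transfected cells. None had an unadjusted p under 0.05 in that fit, and none was called by DESeq2. In the same comparisons 4.11%, 5.33%, 12.6% and 6.18% of all genes were called. The lowest adjusted p among members was 0.69, 0.44, 0.43 and 0.48. In non-transfected cells FAS had a log2 difference of -0.50 (interval -1.29 to 0.30) and CASP8 one of -0.05 (interval -0.44 to 0.34). After FLASH siRNA the FAS difference was -0.34 (interval -1.05 to 0.38).

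The change of the TGFb response with each siRNA, tested as an interaction, also called no member for FLASH, NPAT or SLBP siRNA by edgeR (adjusted p of 1 for all 10), none at an unadjusted p under 0.05 and none by DESeq2. Over all genes these interactions called 0.0845%, 0.0451% and 0.0225%. For FAS the interaction with FLASH siRNA was 0.16 with an interval of -0.90 to 1.22 on the log2 scale, so sizeable differences in either direction were within reach of the error.

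Compared per length, BCL2L1, TNFRSF10B and BIK kept their rank by group mean in all 8 groups, while the order of the others varied. CFLAR, for example, ranked 6 in non-transfected cells and 4 after SLBP siRNA. In non-transfected cells BCL2L1 led at 140 ± 21.3 TPM (SD, n = 2), followed by TNFRSF10B at 41.1 ± 5.95, CASP8 at 34.0 ± 1.56 and BID at 33.1 ± 1.17 TPM. FADD stood at 26.2 ± 0.481, CFLAR at 18.9 ± 1.83, BCL2L11 at 15.1 ± 6.43 and TNFRSF10A at 9.97 ± 2.61 TPM, with FAS at 3.33 ± 0.940 and BIK at 0. CASP8 and BID overlapped, as did CFLAR with BCL2L11 and BCL2L11 with TNFRSF10A. BCL2L1 was highest and BIK lowest in all 8 groups. After FLASH siRNA FAS reached 11.2 ± 2.01 TPM and overlapped TNFRSF10A at 10.4 ± 0.884 TPM, whereas in non-transfected cells it lay below TNFRSF10A in both libraries.

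BID also differed in the transcript length that RSEM weights by isoform. The weighted length was 1269 and 1346 bases after NPAT siRNA, against 1059 and 1146 bases in non-transfected cells, and with TGFb 1333 and 1394 bases after NPAT siRNA, against 1134 and 1160 bases. The NPAT libraries lay above the non-transfected ones at each TGFb status. So did the SLBP libraries, at 1160 and 1301 bases without TGFb and 1175 and 1278 bases with it. The FLASH libraries lay above them without TGFb, at 1196 and 1230 bases, and overlapped them with it. On the per-length scale BID therefore read lower after NPAT siRNA, at 25.7 and 29.9 TPM against 32.3 and 34.0 TPM in non-transfected cells, while the CPM of the same libraries overlapped. After SLBP siRNA it read 25.9 and 26.7 TPM, again with overlapping CPM. Lengths were not tested, and repeat 1 had the shorter BID length in all 8 groups.

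**Figure D3:**
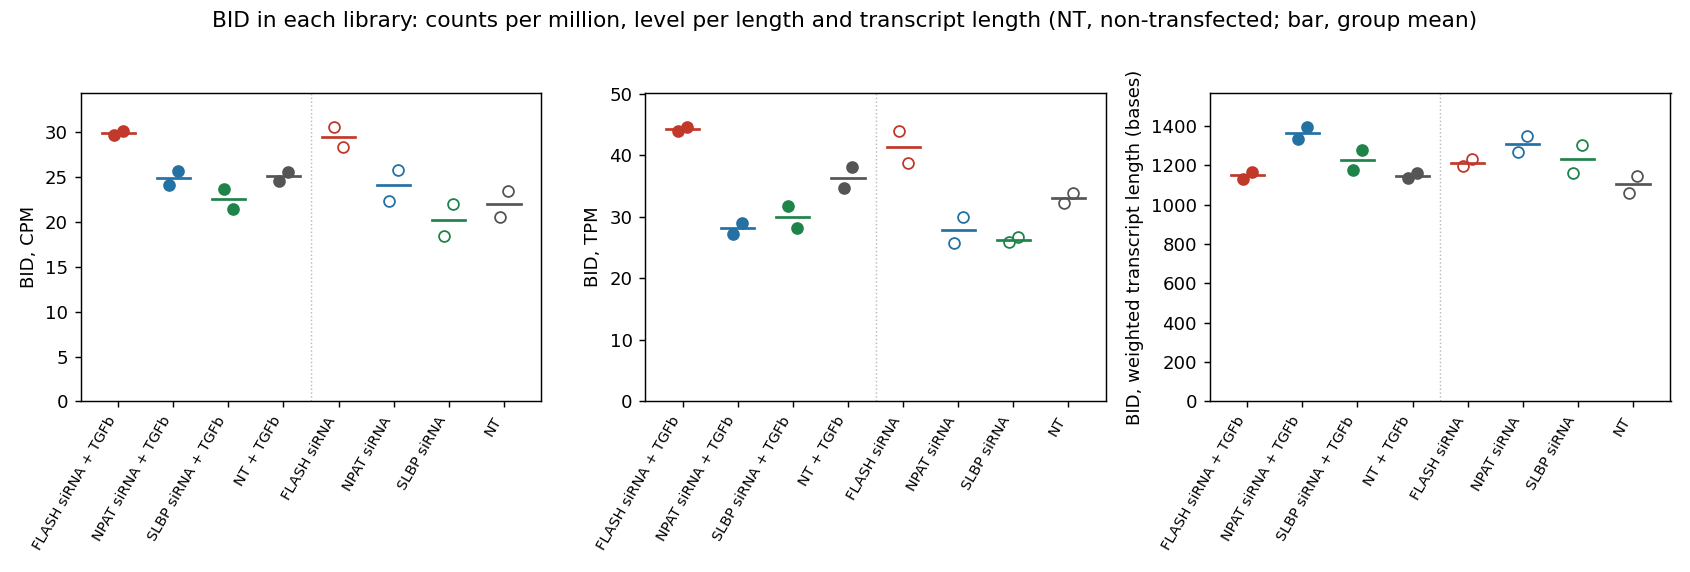
BID in each library as CPM (left), TPM (middle) and weighted transcript length in bases (right), by group; points are libraries, bars group means, filled points with TGFb, and all vertical axes start at 0. The 4 NPAT siRNA libraries have lengths of 1269 to 1394 bases, above the 1059 to 1160 bases of the 4 non-transfected libraries. The SLBP siRNA libraries (1160 to 1301 bases without TGFb, 1175 to 1278 with it) also lie above the non-transfected ones of their TGFb status.

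A further 50 genes of the same pathways were listed by role, of which 44 were tested. After FLASH siRNA without TGFb 13 of the 44 rose and 7 fell, CASP8AP2 itself among those that fell, beside 20.8% of all genes called higher and 12.9% lower. After NPAT siRNA 11 rose and 8 fell, beside 18.9% and 13.3% of all genes, and after SLBP siRNA 7 rose and 6 fell, beside 15.1% and 10.8%, so that the SLBP counts are near the share of all genes. With TGFb the counts were 11 and 6 after FLASH siRNA (17.5% and 9.06% of all genes), 10 and 4 after NPAT siRNA (13.7% and 10.3%) and 7 and 5 after SLBP siRNA (12.3% and 7.6%). The median log2 fold change of the 44 was 0.19, 0.12 and 0.08 without TGFb after FLASH, NPAT and SLBP siRNA, beside 0.04, 0.06 and 0.05 over all genes. The 44 include genes, among them TNFSF10 and TNFRSF11B, that passed the filter on low counts only through siRNA libraries.

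Among ligands, only TNFSF10 (TRAIL) of 4 was tested. It passed the filter on low counts only through siRNA libraries, so its calls are given as a description. It stood at 1.85 and 3.62 CPM after NPAT siRNA, against 0.357 and 0.343 CPM in non-transfected cells, a log2 fold change of 2.95 (adjusted p = 0.00027, edgeR), and 2.14 (adjusted p = 0.0041) with TGFb. After FLASH siRNA it was 1.43 (adjusted p = 0.017), a call lost without any of its 4 libraries (up to 0.081).

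Receptors held the largest changes: of 8 tested, 4 rose after FLASH siRNA without TGFb (TNFRSF25, TNFRSF21, TNFRSF11B and NGFR). NGFR, a death-domain receptor for neurotrophins, stood at 107 and 100.3 CPM after FLASH siRNA, against 2.39 and 1.83 CPM in non-transfected cells, with log2 fold changes of 5.61 after FLASH siRNA (SE 0.36, adjusted p = 1.1e-06), 4.41 after NPAT siRNA and 3.52 after SLBP siRNA. TNFRSF11B, the soluble TRAIL and RANKL decoy osteoprotegerin, averaged 9.74 CPM after SLBP siRNA with TGFb, against 0.0396 CPM in non-transfected cells with TGFb (adjusted p = 9.7e-05). TNFRSF11B passed the filter on low counts only through siRNA libraries, so its calls are given as a description. TNFRSF25, the death receptor DR3, stood at 18.8 and 20.0 CPM after FLASH siRNA, against 8.32 and 9.78 CPM (log2 fold change 1.10, adjusted p = 0.00063).

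In the receptor complex, the 7 listed genes moved both ways. FAIM, an inhibitor of FAS-induced death, rose after FLASH siRNA to 21.2 and 20.4 CPM, against 9.82 and 11.8 CPM in non-transfected cells (log2 fold change 0.94, adjusted p = 0.00038, edgeR), and after NPAT siRNA by 0.87 (adjusted p = 0.00095). TRAF2, an adaptor of TNF receptor signalling, fell after SLBP siRNA to 24.1 and 22.2 CPM, against 42.4 and 37.8 CPM (log2 fold change -0.79, adjusted p = 0.00024), a call lost when the fit was restricted to those groups. CYLD, a deubiquitinase of the RIPK1 complex, rose by 0.73 after FLASH siRNA with TGFb (adjusted p = 0.0022). CASP10, the nearest paralogue of CASP8, rose by 1.96 after FLASH siRNA (adjusted p = 0.017), a call lost without either non-transfected library or FLASH repeat 1 (up to 0.1).

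Of the BCL2 family outside the members, few genes passed. Among 5 survival genes BCL2L2 fell after FLASH siRNA (-0.48, adjusted p = 0.032, edgeR), BCL2 fell after NPAT siRNA (-1.43, adjusted p = 0.028) and MCL1 fell after FLASH siRNA with TGFb (-0.69, adjusted p = 0.039). BCL2L2 was lost without non-transfected repeat 1 or either FLASH library (up to 0.19), BCL2 without non-transfected repeat 1 or either NPAT library (up to 0.23) and under DESeq2, and MCL1 without any of its 4 libraries (up to 0.15). Among the pore-forming genes, BOK rose after NPAT siRNA (0.56, adjusted p = 0.0023) and SLBP siRNA (0.61, adjusted p = 0.002), held without any 1 library although the SLBP call was lost when the fit was restricted to those groups, and BAK1 passed in none of the 6 comparisons. BAX fell after NPAT siRNA (-0.32, adjusted p = 0.019, edgeR). The BAX call was lost without either non-transfected library or NPAT repeat 2, with no filter and when the fit was restricted to those groups. BMF, a BH3-only gene, rose after SLBP siRNA (2.33, adjusted p = 0.021), lost without non-transfected repeat 1 or SLBP repeat 2 (up to 0.19).

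Downstream, BIRC5, which encodes survivin, fell after NPAT siRNA (-1.09, adjusted p = 0.0044) and SLBP siRNA (-1.18, adjusted p = 0.0039), whereas after FLASH siRNA its change was 0.54 (adjusted p = 0.087); FLASH siRNA exceeded NPAT siRNA by 1.63 and SLBP siRNA by 1.72 on the log2 scale. MLKL, the effector of necroptosis, rose after FLASH siRNA with TGFb to 7.56 and 9.72 CPM, against 3.60 and 2.91 CPM (log2 fold change 1.41, adjusted p = 0.00064). Where no loss is stated, the calls against non-transfected cells given with a value for these pathway genes held without any 1 library; of all 72 calls that the naming rule covers, 31 did.

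**Figure D4:**
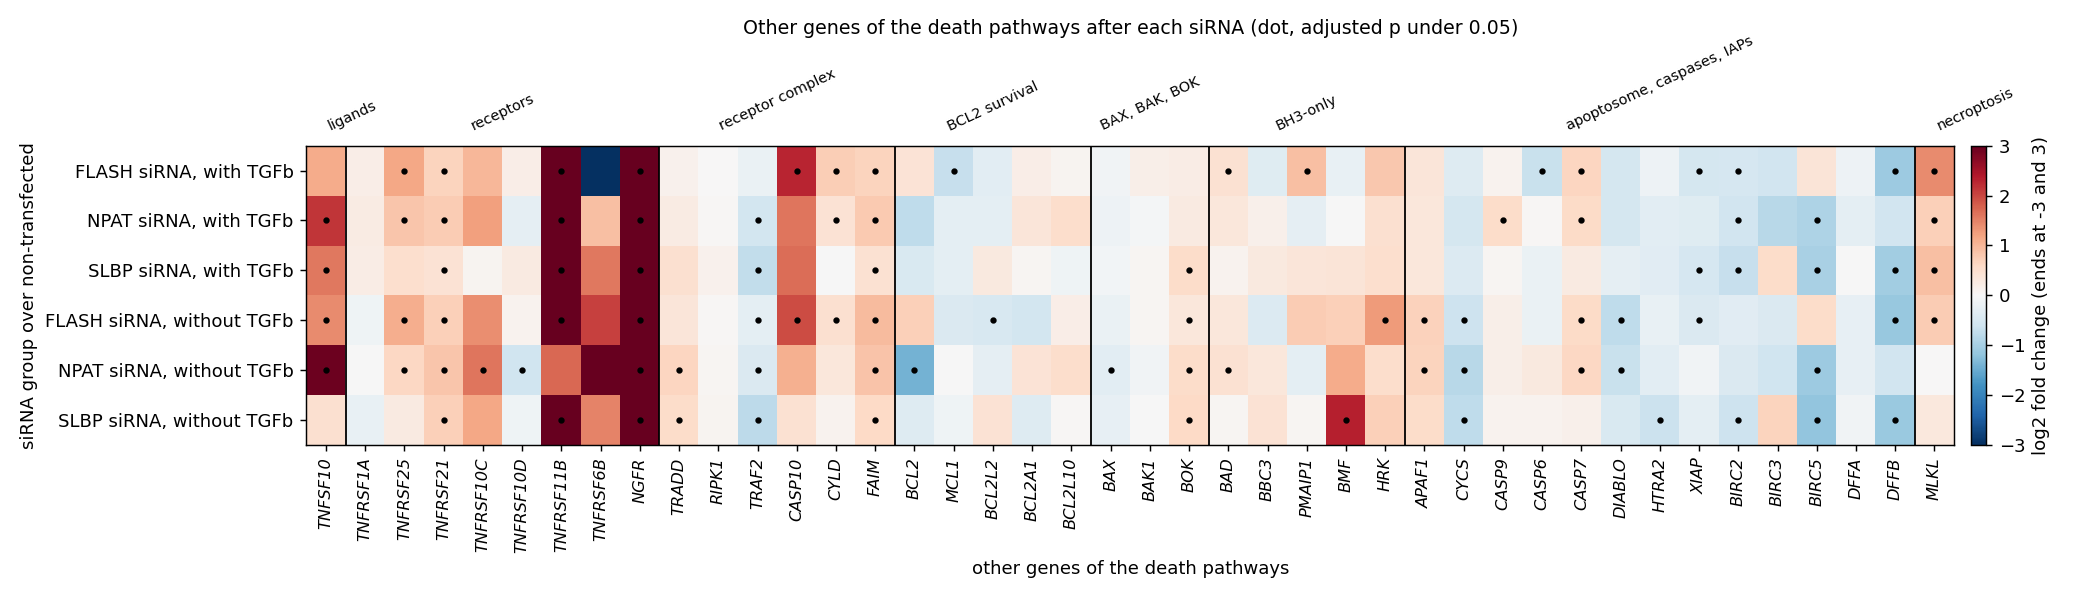
Log2 fold change over non-transfected cells (colour, ending at -3 and 3) for tested genes of the same pathways, with CASP8AP2 not drawn, in columns grouped by role, with the 6 siRNA comparisons in rows and dots where adjusted p was under 0.05. NGFR is past the end of the scale in all 6 rows, with its lowest log2 fold change at 3.52, and BIRC5 is blue in the 4 NPAT and SLBP rows but not in the 2 FLASH rows.

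Genes with group means most like CASP8, by mean absolute difference of centred log2 CPM over the 8 groups among 14177 genes, included SH3GLB2 (0.051) and ARF3 (0.052). For BIK they were EPHB3 (0.157), CCDC136 (0.191) and DGKG (0.193).

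Gene lists for other programmes and cell types were read in the same groups. Of 18 interferon-response genes, 6 rose after FLASH siRNA without TGFb, 1 after NPAT siRNA and 2 after SLBP siRNA, and none fell, beside 20.8%, 18.9% and 15.1% of all genes called higher; the NPAT and SLBP counts are below the share of all genes. Their summed level was 500 to 749 CPM after FLASH siRNA, 390 to 712 CPM after NPAT siRNA and 400 to 683 CPM after SLBP siRNA, against 363 to 422 CPM in non-transfected cells. Of 15 p53 target genes, 4 rose and 1 fell after FLASH siRNA without TGFb. After NPAT siRNA 10 rose and 1 fell, and after SLBP siRNA 4 rose. Over all genes 20.8%, 18.9% and 15.1% were called higher and 12.9%, 13.3% and 10.8% lower, so the FLASH counts are near that share. The list was made without the 10 members, so these counts do not cover them. CDKN1A, a cell-cycle inhibitor on this list, rose by 2.12 on the log2 scale after FLASH siRNA. Without TGFb it was also called higher after NPAT siRNA and after SLBP siRNA. The median log2 fold change of the 15 genes without TGFb was 0.29 after FLASH siRNA, 0.54 after NPAT siRNA and 0.20 after SLBP siRNA. Summed leukocyte markers stood at 2.91 to 3.33 CPM after FLASH siRNA, 1.34 to 2.11 CPM after NPAT siRNA and 0.977 to 1.23 CPM after SLBP siRNA, against 0.266 to 0.678 CPM in non-transfected cells. With TGFb, summed endothelial markers stood at 6.41 to 9.72 CPM after FLASH siRNA, 2.61 to 3.18 CPM after NPAT siRNA and 6.64 to 8.67 CPM after SLBP siRNA, against 0.0359 to 0.0396 CPM in non-transfected cells. Summed fibroblast markers with TGFb stood at 1.12 to 2.57 CPM after FLASH siRNA, 0.620 to 0.768 CPM after NPAT siRNA and 3.20 to 7.24 CPM after SLBP siRNA, against 0.144 to 0.158 CPM, and summed acinar markers reached at most 0.221 CPM in any group. The part of these programmes and markers in the changes of FAS, CASP8, TNFRSF10B and BIK was not tested.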

How the data were processed

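Poly(A) RNA of 16 PANC-1 libraries (8 groups of 2) was sequenced with a strand-preserving kit, per the labels' protocols. The genome build was GRCh38.p10 and the tools RSEM 1.2.31 and STAR 2.4.2a, per the submitters' processing notes; the annotation release and strand setting of counting are not given in the sources used here. The authors deposited RSEM expected counts, TPM and weighted transcript lengths per gene. The table's 32 columns of effective length and FPKM were not used. Expected counts were rounded, filtered with filterByExpr, scaled by TMM and tested with edgeR 4.0.16 (R 4.3.3, limma 3.58.1), 1 quasi-likelihood fit over all 16 libraries with a mean per group, and p-values adjusted by Benjamini-Hochberg over 17743 genes in each of 17 comparisons (threshold 0.05). The table held 58219 genes, 26056 of them without counts. SE is the log2 fold change divided by the root of F. Library depth was 23.8 to 30.8 M counts. The script was tested on simulated data.

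Groups come from the sample titles. Genes named are the 10 members, the 3 siRNA targets, in each pathway list and siRNA comparison up to 3 passing genes with the largest change, and the 3 genes nearest CASP8 and BIK; ACTA2, RHOBTB2 and MIR4435-2HG are named as overlapping genes, chosen after their positions were read, CDKN1A, BAK1 and the values of BIRC5 outside the NPAT and SLBP comparisons after their values were seen. Some items that this rule covers are not reported here. Members and lists were chosen with earlier results of these data known. Gene positions are from GENCODE 29 (GRCh38), promoters from RefSeq GRCh38.p14. Alternatives tried were RLE size factors, no filter, a replicate block, a fit of only the groups compared, DESeq2 1.42.0 and leaving out each library; a lone library left in a group was assumed to vary like the other groups.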

Additional observations from a re-analysis of the deposited data

How the results depend on the processing

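No called result changed direction under any alternative run. Of the 24 calls on members, 7 are on BIK. Those on FAS and BIK after FLASH siRNA, at each TGFb status, held without any 1 library. So did BIK after NPAT siRNA without TGFb, and the other calls did not. Under the 5 other settings, 12 calls held in every setting that tested the gene. BIK after NPAT siRNA and after SLBP siRNA, with and without TGFb, was tested in 4 of them. The fit of only the groups compared did not test it there. The CASP8 calls lie close to the threshold, and BIK rests on at most 28 counts per library.

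Members called, without TGFb unless stated: after NPAT siRNA 4 became 0 with only the groups compared; after SLBP siRNA 3 became 5 with no filter and 0 with only the groups compared; after FLASH siRNA with TGFb 2 became 4 with no filter; after NPAT siRNA with TGFb 2 became 4 with RLE size factors, with no filter, with only the groups compared and with DESeq2. FLASH against NPAT siRNA moved from 1 to 0 with only the groups compared, and with TGFb from 0 to 1 with no filter, 2 with only the groups compared and 1 with DESeq2. FLASH against SLBP siRNA moved from 2 to 5 with no filter and 1 with only the groups compared, and with TGFb from 1 to 0 with RLE size factors, 2 with no filter and 2 with only the groups compared.

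Genes called over the whole table: no filter gave 1490 for TGFb after FLASH siRNA (729 in the reported fit), 1780 after NPAT siRNA (946) and 1735 in non-transfected cells (1096), and 157, 125 and 271 for the FLASH, NPAT and SLBP interactions (15, 8 and 4). Only the groups compared gave 3303 after NPAT siRNA (5724), 584 after SLBP siRNA (4596, with 74.1% instead of 58.1% higher), 1633 for FLASH against SLBP siRNA (4642, 69.6% instead of 58.6% higher), 1761, 328 and 651 for TGFb after FLASH, NPAT and SLBP siRNA (2232 for SLBP; 67.7%, 79% and 80.5% higher, against 81.6%, 64.1% and 64.1%), and 1 each for the NPAT and SLBP interactions. DESeq2 gave 31, 24 and 32 for the interactions.

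The replicate number as a block is reported only here. Deviations of same-numbered libraries correlated at 0.0816 to 0.690 (median 0.366). Of 28 pairs 27 were over 0.1, and 1 pair fell short of that limit, so the reported fit does not pair the libraries. All correlations were positive, so same-numbered libraries shared part of their deviations, and the reported fit leaves this part in its error. Members that the reported fit does not call can therefore pass with the block. With the block, members called were 7 after NPAT siRNA and 6 after SLBP siRNA, 4 after FLASH siRNA with TGFb and 5 after NPAT siRNA with TGFb, 1 for TGFb in non-transfected cells, 3 for FLASH against NPAT siRNA (2 with TGFb) and 5 for FLASH against SLBP siRNA (3 with TGFb). The calls gained with the block include BCL2L11 after FLASH siRNA (0.72, adjusted p = 0.00047; 0.0045 with TGFb) and NPAT siRNA (0.55, 0.0033), and BCL2L1 as lower after SLBP siRNA (-0.30, 0.023; with TGFb -0.44, 0.0039), as higher after NPAT siRNA (0.35, 0.009) and as higher with TGFb in non-transfected cells (0.33, 0.041). Over all genes the block gave 6945 after SLBP siRNA, 6712 and 5714 after NPAT and SLBP siRNA with TGFb (4271 and 3523), 1785, 2170, 3915 and 2119 for TGFb after FLASH, NPAT and SLBP siRNA and in non-transfected cells, 26, 20 and 23 for the interactions, 6266 and, with TGFb, 4652 for FLASH against NPAT siRNA (3952 and 2411), and 4518 for FLASH against SLBP siRNA with TGFb (2311).

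Leaving out 1 library at a time, the members called ranged from 2 to 5 after FLASH siRNA, 1 to 4 after NPAT siRNA and 0 to 3 after SLBP siRNA, and with TGFb were 2, 0, and 0 to 1; they ranged from 0 to 1 for FLASH against NPAT siRNA and 0 to 2 for FLASH against SLBP siRNA and were 0 for both with TGFb. Over all genes the counts ranged from 3540 to 4383 after FLASH siRNA, 2999 to 4529 after NPAT siRNA and 1824 to 5490 after SLBP siRNA; with TGFb from 2274 to 3958, 1553 to 3061 and 1390 to 2566; for TGFb from 243 to 367 after FLASH siRNA, 434 to 712 after NPAT siRNA, 1174 to 2868 after SLBP siRNA and 504 to 558 in non-transfected cells; for the interactions from 7 to 14, 1 to 7 and 0 to 9; for FLASH against NPAT siRNA from 1324 to 2844 and, with TGFb, 363 to 1591; and for FLASH against SLBP siRNA from 1849 to 4652 and, with TGFb, 359 to 1484. The cause of these moves was not tested.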
